A study of Mus musculus with 3 samples.

Results

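Sebum is the oily secretion of the sebaceous gland, and 10 of the 32285 genes counted in these skin cells were followed because they make it, store it or control its cells. Fatty acid synthesis is represented by *Fasn*, *Elovl6* and *Scd1*, lipid esters by *Dgat2*, *Far2*, *Awat2* and *Soat1*, the lipid droplet by *Cidea*, the nuclear receptor of the lipid programme by *Pparg*, and detoxification by *Mgst1*. The genes were named by their role, and their UMIs (unique molecular identifiers, 1 per captured mRNA molecule) were read in cells with at most 10% mitochondrial UMIs and at least 200 genes.

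The sebaceous gland opens into the upper part of the hair follicle. Its cells, the sebocytes, fill with triglycerides, wax esters and sterol esters as they mature, then burst and release the whole cell content into the follicle canal. The enzymes of the common fatty acid pathway also serve the epidermis, where lipids build the water barrier.

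The skin came from female C3H/HeN mice aged 25 weeks, with the skin of 7 to 8 mice pooled in each library, so every group is 1 library and no value has a replicate check. The Neg library is from mice that received only vehicle. The AA library is from mice in which alopecia areata (AA), an autoimmune loss of hair, was started by transfer of cultured lymph node cells from affected donors. The AA+Ab library is from AA mice given an antibody that neutralizes the chemokine CXCL12. All intervals below are exact 95% intervals that cover counting error only, not the spread between mice or between cells. After filtering, 6582, 10433 and 9832 cells remained in Neg, AA and AA+Ab, with median UMI counts of 13694, 11177 and 11371. Between 17 and 28 barcodes were found in both libraries of a pair.

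Sebaceous-like cells were taken from markers that include none of the 10 genes. A cell needed at least 2 UMIs of a list of 7 genes (*Mc5r*, *Awat1*, *Scd3*, *Dgat2l6*, *Pnpla5*, *Thrsp* and *Gal*), at least 1 of them from *Mc5r*, the melanocortin receptor of sebocytes, and at most 4 UMIs from the markers of each of 6 other cell types. The rule found 12 Neg, 24 AA and 12 AA+Ab cells. These are 0.182% (0.0942 to 0.318), 0.230% (0.147 to 0.342) and 0.122% (0.0631 to 0.213) of the kept cells, and the intervals overlap. *Mc5r* was at 136, 134 and 169 CPM, the UMIs of a gene per 1000000 UMIs of the class, in Neg, AA and AA+Ab, against at most 0.246 CPM outside. Every cell of the class had to hold *Mc5r*, so this contrast was set by the rule and is no separate evidence for the name. *Scd3* was at 28.9, 28.4 and 38.6 CPM and *Pnpla5* had 1 UMI in each library, while *Thrsp* and *Gal* were at 0 in the class. *Awat1* had 1 UMI in all, in AA+Ab, and *Dgat2l6* 1, in AA. The name therefore rests mainly on *Mc5r*, the gene that the rule required. Of 100 cells with 2 UMIs of the list, 41 had no *Mc5r*, and none of those entered the wider set of cells described next. Just outside the threshold, with 1 list UMI that was *Mc5r*, were 4 Neg, 24 AA and 23 AA+Ab cells.

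A wider sebaceous-like class was added after the marker class had been seen. It also takes cells rich in 20 other genes that led in the marker class by fold, such as the fatty acid hydroxylase *Fa2h*, the ceramide synthase *Cers4* and the lipoprotein lipase *Lpl*, none of them among the 10 genes or the pathway lists. It held 18, 67 and 40 cells, or 0.273% (0.162 to 0.432), 0.642% (0.498 to 0.815) and 0.407% (0.291 to 0.554) of kept cells. Its share in AA was 2.35 times that in Neg (1.38 to 4.20), whereas the marker class gave 1.26 times (0.607 to 2.77). The share of AA+Ab was 0.634 times that of AA (0.417 to 0.951) in the wider class and 0.531 times (0.242 to 1.10) in the marker class. Recovery of sebocytes during dissociation and their number in the skin cannot be told apart in these shares. The largest cell held 27.4%, 13.0% and 16.0% of the UMIs of the marker class in Neg, AA and AA+Ab. In Neg another cell, of 110359 UMIs, stood beside the largest, of 132405. The class there had 483982 UMIs in all and a median of 25401 per cell. For the 10 genes, sums are therefore given below with the median cell or the level without the richest cell.

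Far from being spread evenly, the 10 genes differed in how much of their mRNA lay in sebaceous-like cells. Over the 3 libraries together, the 125 cells of the wider class, 0.466% of all kept cells, held 93.4% of the *Cidea* UMIs, 76.7% of *Far2* and 54.5% of *Pparg*. They held 25.8% of *Scd1*, 9.52% of *Elovl6*, 8.86% of *Dgat2*, 7.65% of *Soat1*, 4.92% of *Awat2* and 3.03% of *Fasn*. *Cidea*, *Far2* and *Pparg* thus had most of their UMIs there, and the other genes had most of theirs elsewhere. The suprabasal epidermal keratinocytes, 9.39% of cells, held 40.6% of the *Dgat2* UMIs. The inner root sheath class, 2.66% of cells, held 24.7% of *Soat1*.

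**Figure D1:**
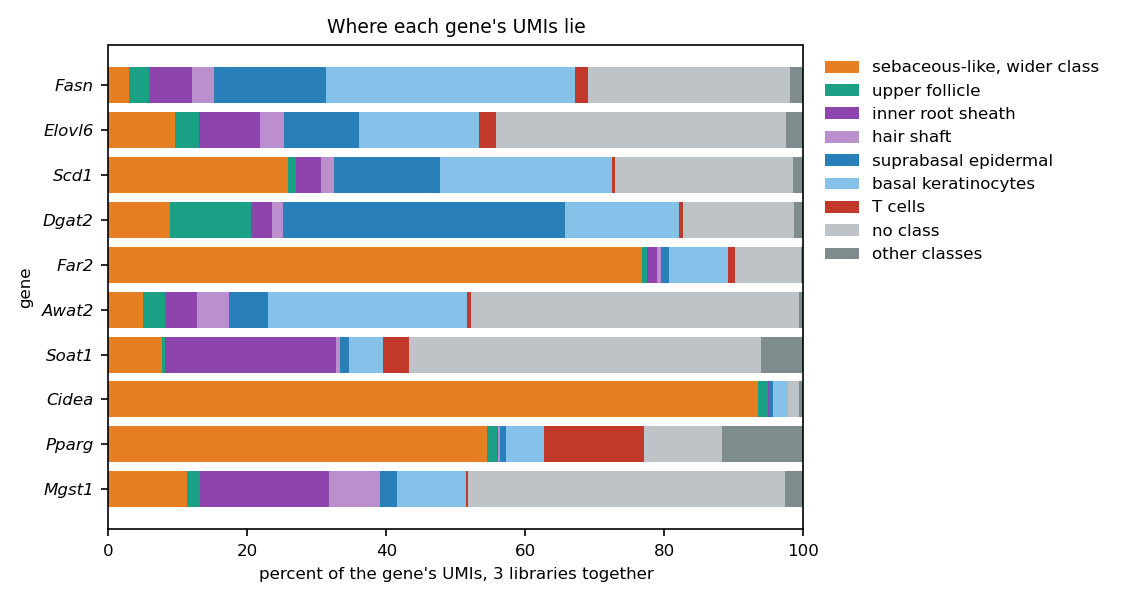
Bars show, for each gene, the percent of its UMIs that lay in each cell class, the 3 libraries together, with cells of no class as their own segment. The wider sebaceous-like segment fills most of the *Cidea* bar (93.4%) and the *Far2* bar (76.7%) and little of the *Fasn* bar (3.03%).

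Within each library, all 10 genes had a higher CPM in the marker class than in the cells outside the wider class. The median ratio over the 10 genes was 21.0 in Neg, 36.0 in AA and 35.7 in AA+Ab. *Cidea* stood highest, at 2216 (1450.2 to 3533), 2940.2 (2164 to 4089) and 5043 (3609.7 to 7234) times the level outside. *Fasn*, the fatty acid synthase that every growing cell can use, had ratios of 3.83, 8.45 and 7.81. *Awat2* was close to it, at 4.49, 8.72 and 15.7, from 5, 13 and 9 UMIs in the class.

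The genes also met in the same cells. At least 8 of the 10 were detected in 6 of 12 Neg, 11 of 24 AA and 9 of 12 AA+Ab cells of the marker class, and in no cell outside the wider class. *Far2*, *Cidea* and *Pparg* were found together in 9, 14 and 10 cells of the marker class and in none of the 26722 cells outside the wider class. Some cells of the class had none of the 3 genes. In Neg, AA and AA+Ab these numbered 0, 3 and 1 in the marker class and 2, 11 and 1 in the wider class. Depth differs between classes, with a median of 22766 UMIs in the marker class and 11012 in basal keratinocytes, so the share of cells expected to hold a UMI when each is thinned to 2000 UMIs was also computed, leaving out 1 shallower AA+Ab cell. For *Cidea* it was 39.0%, 44.7% and 61.5% of marker class cells in Neg, AA and AA+Ab, from 75.0%, 70.8% and 83.3% before thinning. In the upper follicle it was 0.0793%, 0.428% and 0.225%, from 1.10%, 2.70% and 1.26%, and in basal keratinocytes 0.0198%, 0.0562% and 0.0349%, from 0.173%, 0.289% and 0.210%. For *Scd1* it was 77.4%, 75.1% and 85.9% in the marker class.

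Fatty acids are built by fatty acid synthase (*Fasn*), lengthened by the elongase *Elovl6* and given a double bond by the desaturase *Scd1*, whose monounsaturated products are abundant in sebum. *Scd1* (chr19:44394450-44407709, coordinates of this and the other genes on GRCm38, the assembly also called mm10) had 1494 CPM in Neg, 4228 in AA and 3852 in AA+Ab of the marker class. The log2 ratio was 1.50 (1.38 to 1.62) for AA over Neg, 1.37 (1.23 to 1.50) for AA+Ab over Neg and -0.13 (-0.24 to -0.03) for AA+Ab over AA. The median cell had 1072, 1418 and 2269.6 CPM, so the gap between Neg and AA was smaller for a typical cell than for the sum.

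*Elovl6* (chr3:129532386-129638495) had 442 CPM in Neg, 1830.4 in AA and 1868 in AA+Ab, with log2 ratios of 2.05 (1.84 to 2.27) for AA over Neg and 2.08 (1.85 to 2.31) for AA+Ab over Neg. In each library a single cell held much of this: 54.7% of the class UMIs in Neg, 47.2% in AA (547 of 1159) and 51.7% in AA+Ab. Without that cell the levels were 276, 1032 and 1048 CPM, in the same order. The median cell, at 172, 139 and 205 CPM, did not show the difference between Neg and AA.

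*Fasn* (chr11:120805958-120825166) was lower and closer between libraries. It had 130.2, 246 and 207 CPM, from 63, 156 and 59 UMIs, with a log2 ratio of 0.92 (0.49 to 1.37) for AA over Neg. The median cell had 69.4, 62.7 and 92.9 CPM.

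Diacylglycerol acyltransferase 2, the product of *Dgat2*, makes triglycerides, and *Far2* encodes a reductase that makes the fatty alcohols for the wax ester synthase *Awat2*. *Dgat2* (chr7:99153663-99182713) had 99.2 CPM in Neg, 164 in AA and 162 in AA+Ab, with median cells at 88.2, 132 and 122. It was 1 of 2 genes, with *Scd1*, for which both the sum and the median cell were higher in AA than in Neg. *Far2* (chr6:148047416-148182758) had 306, 407 and 639 CPM, and its log2 ratio was 0.41 (0.12 to 0.72) for AA over Neg and 1.06 (0.74 to 1.39) for AA+Ab over Neg. Its median cell had 232, 208 and 326 CPM, so by the median cell *Far2* was lower in AA than in Neg. *Awat2* (chrX:100402221-100494278) had 10.3, 20.5 and 31.6 CPM. With 27 UMIs in all in the class, no difference in *Awat2* was detectable at this depth.

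*Soat1* (chr1:156428108-156474328), which esterifies cholesterol, did not follow the other genes. Its level was 432 CPM in Neg, 218 in AA and 471 in AA+Ab, a log2 ratio of -0.99 (-1.31 to -0.67) for AA over Neg and 1.11 (0.76 to 1.46) for AA+Ab over AA. In Neg, 1 cell held 146 of the 209 UMIs (69.9%). Without the richest cell of each library the levels were 179, 151 and 379 CPM, and only 50%, 33.3% and 58.3% of the cells had a UMI. The distance between Neg and AA in *Soat1* thus came mostly from that cell.

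*Cidea* encodes a lipid droplet protein that helps droplets fuse and enlarge. It had 448 CPM in Neg, 963 in AA and 1380.0 in AA+Ab, with log2 ratios of 1.10 (0.88 to 1.33) for AA over Neg, 1.62 (1.38 to 1.87) for AA+Ab over Neg and 0.52 (0.33 to 0.70) for AA+Ab over AA. The median cell had 334, 139 and 667 CPM. By the median cell AA was thus the lowest of the 3 libraries, and by the sum it lay between the others.

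*Pparg* (chr6:115360879-115490404), the receptor that drives sebocyte differentiation, was the 1 gene whose sum was lower in both AA libraries than in Neg: 291 CPM in Neg, 240.1 in AA and 221 in AA+Ab. The intervals of its log2 ratios held 0, at -0.28 (-0.62 to 0.06) for AA over Neg and -0.40 (-0.85 to 0.04) for AA+Ab over Neg. The median cell had 328, 187 and 168 CPM. The share of cells expected to hold a *Pparg* UMI after thinning was 48.6%, 29.9% and 33.1%, from 100%, 79.2% and 83.3% before, and in the wider class it was 34.4%, 26.9% and 35.7%, where Neg was not the highest.

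*Mgst1* (chr6:138140527-138156755), a membrane-bound glutathione transferase, was the most abundant of the 10 in sebaceous-like cells of Neg and AA+Ab, with 2145 CPM in Neg, 3749 in AA and 5092 in AA+Ab. The log2 ratio was 0.81 (0.70 to 0.91) for AA over Neg, 1.25 (1.13 to 1.36) for AA+Ab over Neg and 0.44 (0.35 to 0.54) for AA+Ab over AA. The median cell had 2074, 1821 and 3934 CPM. UMIs were counted at the 3′ end, 1 per captured molecule, so CPM were set side by side between genes without a correction for length.

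**Figure D2:**
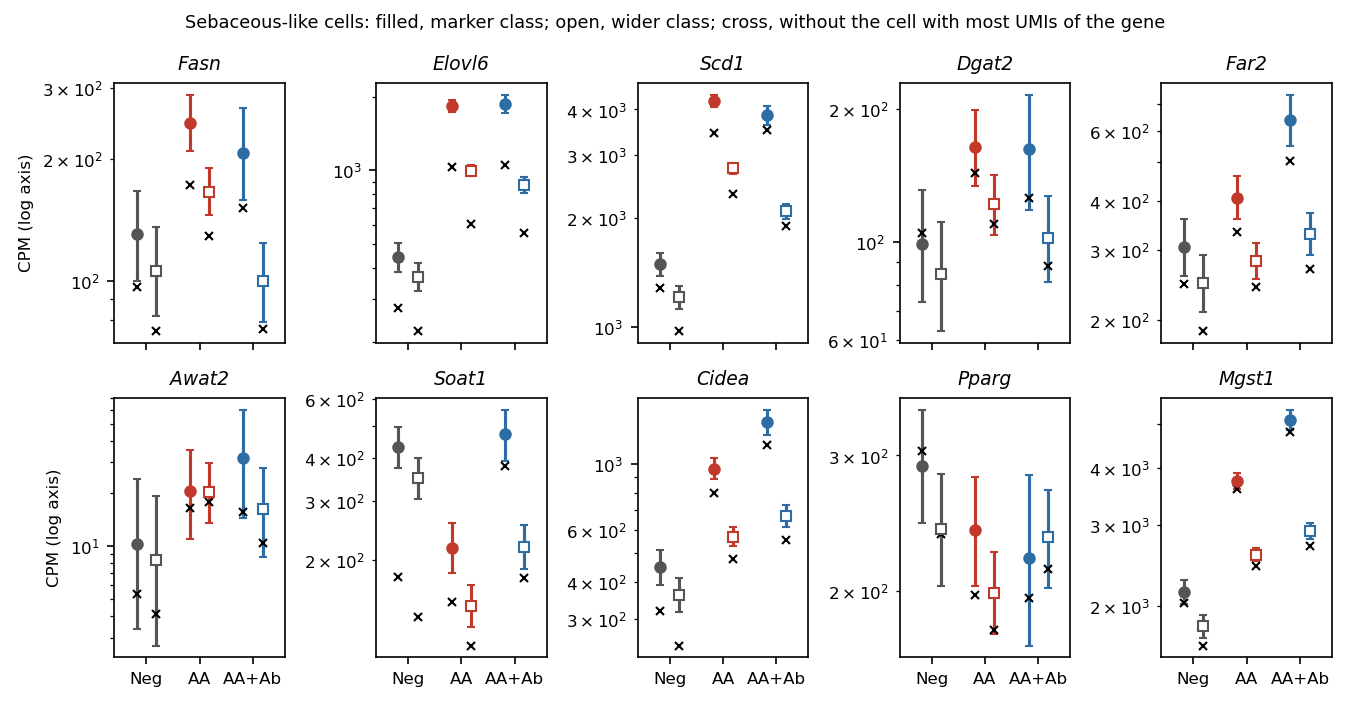
One panel per gene gives CPM on a log axis in the 3 libraries, filled for the marker class with its 95% counting interval, open for the wider class and crossed for the marker class without the cell with most UMIs of that gene. *Elovl6* is higher in AA and AA+Ab than in Neg by all 3 measures, while the *Soat1* points of Neg drop from 432 to 179 CPM when 1 cell is left out.

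Set against all genes of the class, 3 of the 9 genes with at least 20 UMIs in both libraries together were at or beyond 2-fold between AA and Neg, all of them higher (*Elovl6*, *Scd1* and *Cidea*), where 10.5% of 6525 genes were beyond 2-fold in either direction, 4.28% higher and 6.18% lower. The median log2 ratio of the 9 was 0.81 and that of all genes -0.03. Between AA+Ab and Neg, 5 of 9 were beyond 2-fold, all higher, with 22.8% of 5243 genes in either direction, 5.49% higher and 17.3% lower, and medians of 1.06 and -0.12. Between AA+Ab and AA, 1 of 10 was (*Soat1*, higher), with 15.0% of 5647 genes in either direction, 2.64% higher and 12.4% lower, and medians of 0.24 and -0.08. The comparisons share libraries and are not independent of each other.

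These counts rest on sums, in which a few lipid-rich cells weigh heavily. For AA over Neg, 8 of the 10 genes were higher by the sum and 8 without the cell with most UMIs of the gene, but 2 by the median cell, where 7 were lower and *Awat2* was at 0 in both. For AA+Ab over Neg, 9 were higher by the sum, 9 without that cell and 8 by the median cell. In the wider class the counts for AA+Ab over Neg were 7 higher by the sum, with *Fasn*, *Soat1* and *Pparg* lower, and 4 higher by the median cell, with *Scd1*, *Elovl6*, *Fasn* and *Pparg* lower and the other two equal. For AA over Neg there, 8 were higher by the sum and 3 by the median cell. Among wider-class genes with enough UMIs, 3 genes were at or beyond 2-fold higher in AA than in Neg (*Scd1*, *Elovl6* and, with an interval that held 0, *Awat2*) and 1 lower (*Soat1*, log2 ratio -1.25) of 10, beside 8.34% of all genes in either direction, 4.60% higher and 3.74% lower. *Awat2*, with 5 UMIs in Neg and 27 in AA, had enough UMIs to be counted only through AA. For *Soat1*, 1 Neg cell held 146 of 210 UMIs. Without the richest cell of each library its levels were 136 CPM in Neg and 112 in AA. In the same class 1 of 9 (*Elovl6*) was beyond 2-fold between AA+Ab and Neg, higher, beside 10.4% in either direction, 3.17% higher and 7.21% lower, and none of 10 between AA+Ab and AA, beside 8.44%.

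**Figure D3:**
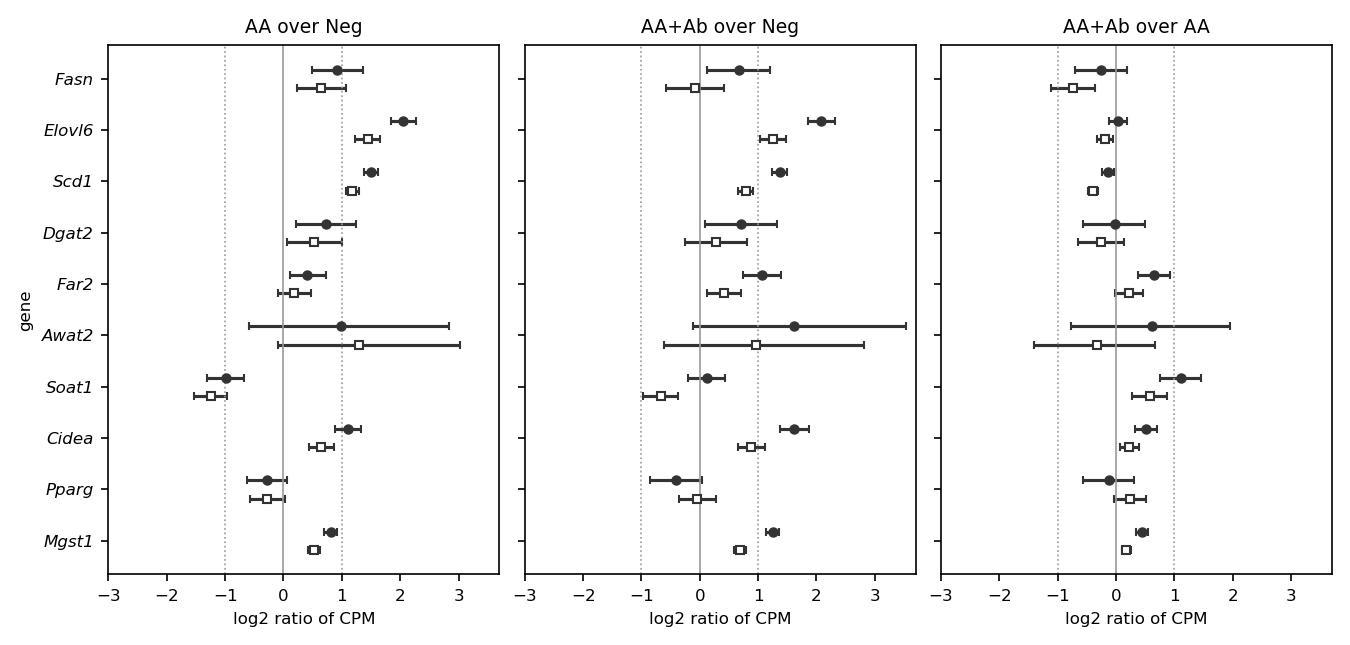
Points give the log2 ratio of CPM with its 95% counting interval for each gene in the 3 comparisons, filled for the marker class and open for the wider class. *Elovl6* and *Scd1* lie right of 0 for AA over Neg (2.05 and 1.50) and for AA+Ab over Neg (2.08 and 1.37), and *Pparg* lies near 0 in all 3.

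Cells of the class differed widely among themselves. The 10 genes together took 0.580% of the class UMIs in Neg, 1.21% in AA and 1.39% in AA+Ab. Per cell the share ran from 0.129% to 0.807% in Neg (median 0.521%), from 0.0217% to 4.38% in AA (median 0.499%) and from 0.0524% to 2.54% in AA+Ab (median 0.904%). No Neg cell exceeded 1%, and 9 of 24 AA and 6 of 12 AA+Ab cells did. The AA cell at 4.38% had 39981 UMIs, of which 631 were *Scd1* and 547 *Elovl6*. The Neg cell with the most UMIs of the 10 genes, 985 of 132405, also carried 53 UMIs of *Mki67* and 76 of *Top2a*, genes of dividing cells, while the richest AA and AA+Ab cells carried at most 2 UMIs of either. Doublets, barcodes that hold several cells, were kept, and whether this Neg cell was a doublet was not settled. In the wider class the per-cell medians were 0.226%, 0.188% and 0.233%, and cells above 1% numbered 0, 13 and 8. AA and AA+Ab thus differed from Neg at the upper end of the range and not in the median of the wider class.

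**Figure D4:**
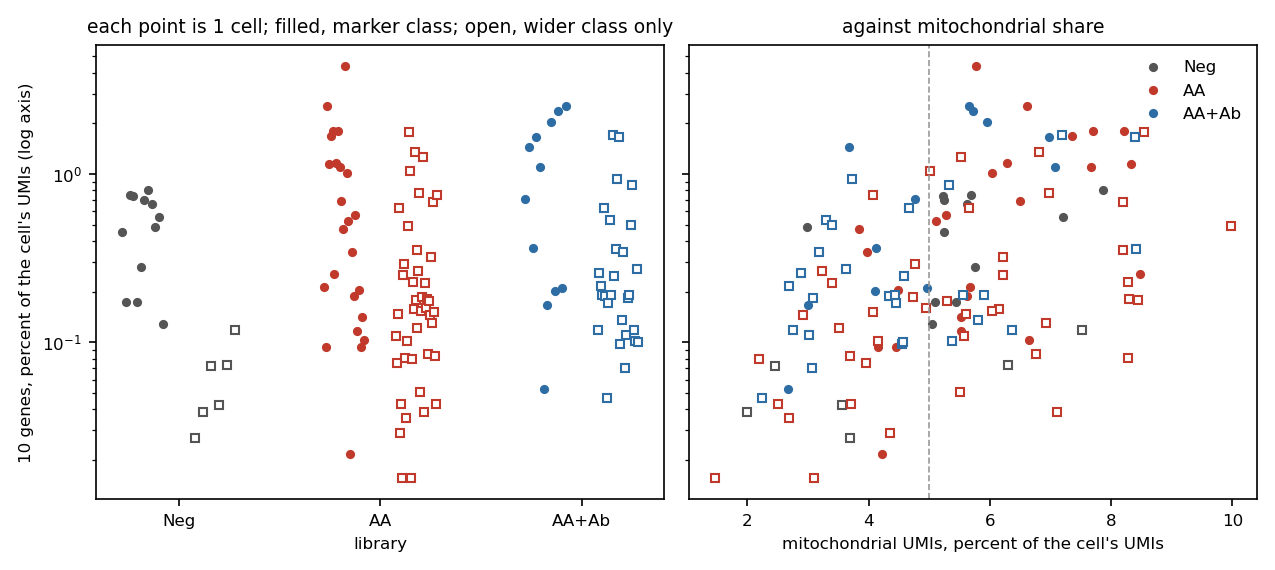
On the left, each point is 1 cell and its height the percent of its UMIs that came from the 10 genes (log axis), by library, filled for the marker class and open for cells in the wider class only. On the right, the same percent is set against the percent of mitochondrial UMIs, with the 5% line dashed, and 9 AA and 6 AA+Ab cells of the marker class are above 1% on the vertical axis.

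Several measures differed between the libraries together with the lipid genes, and their part in the result was not tested. Mitochondrial UMIs were a median of 5.34%, 5.72% and 4.86% in the marker class of Neg, AA and AA+Ab, and 2.35%, 2.16% and 1.80% outside. At or under 5% were 1 of 12, 6 of 24 and 7 of 12 cells of the class, compared with 92.2%, 91.7% and 93.7% of cells outside. With a limit of 5% the class had 786, 449.8 and 2272 CPM of *Scd1*, on 1, 6 and 7 cells, so the order of Neg and AA depends on this filter. Limits of 20% and 30% gave 13 and 14 Neg cells, 30 and 30 AA cells and 14 and 14 AA+Ab cells, with *Scd1* at 1838 and 1841 CPM in Neg, 4367 in AA and 3753 in AA+Ab under both.

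Keratinocyte markers also differed. The summed suprabasal markers (*Krt1*, *Krt10*, *Krtdap*, *Sbsn* and *Lor*) were at 1878 CPM in Neg, 94.8 in AA and 105 in AA+Ab, with 5 of 5 detected in Neg and 4 of 5, without *Lor*, in the others. The 5 basal markers were at 4632, 3555 and 2641 CPM, the 6 bulge markers at 1141, 452 and 169 CPM, and 3 genes of dividing cells at 1324, 801 and 589.9 CPM. A list of 9 genes that respond to dissociation was at 6418, 5867 and 3613 CPM, and 15 interferon-response genes were at 1283, 2124 and 1408 CPM. Adipocytes, the other lipid-storing cells of skin, left almost no trace in the class: all 5 of their markers were at 0 in Neg and AA+Ab, and 2 UMIs were seen in AA. T cell markers had 3, 0 and 1 UMIs and fibroblast markers 3, 4 and 1, the latter limited by the rule itself.

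The lists of the whole lipid pathway, which include the 10 genes, showed where else the libraries differed in the marker class. They also hold *Mc5r*, *Scd3*, *Awat1*, *Dgat2l6*, *Pnpla5* and *Thrsp* of the marker list, whose levels in the class the marker rule itself shaped. Of 12 genes of sterol synthesis and esterification with enough UMIs, 8 were at or beyond 2-fold higher in AA than in Neg, beside 4.28% of all genes, with a list median of 1.13, and 10 in AA+Ab than in Neg, beside 5.49%, with a median of 1.56. In the wider class these counts were 6 of 12 with 1 lower (median 0.93), beside 4.60% higher, and 5 of 12 (median 0.88), beside 3.17%. Between AA+Ab and AA it was 1 of 12 in the marker class, *Soat1*, beside 2.64%, and 0 of 12 in the wider class. Most of the list are enzymes that make cholesterol. *Hmgcs1*, which starts the pathway, had 638, 1249 and 1693 CPM in Neg, AA and AA+Ab. *Sqle*, the squalene epoxidase, had 28.9, 141 and 151 CPM, and *Idi1*, an isomerase of the same pathway, had 179.8, 627 and 881 CPM. All 3 were lowest in Neg. The log2 ratio was 1.76 for *Cyp51* and 1.63 for *Mvd* in AA over Neg, and 1.93 for *Fdft1*, 1.75 for *Cyp51*, 1.72 for *Lss* and 1.72 for *Fdps* in AA+Ab over Neg. For listed genes outside the 10, all levels and ratios are sums. Their median cell and level without the richest cell were not computed, so the part of a few rich cells was not tested. *Sqle* and *Lss* had 14 and 17 UMIs in Neg, and *Acss2*, *Lpin1*, *Dgat1* and *Insig1*, named below, 17, 15, 17 and 11. With fewer than 20 in Neg, these genes had enough UMIs to be counted only through AA or AA+Ab.

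The higher counts of the remaining lists stand beside the same 4.28% of all genes for AA over Neg and 5.49% for AA+Ab over Neg. The shares of all genes lower were 6.18% and 17.3%. In the wider class 4.60% and 3.17% of all genes were higher, and 3.74% and 7.21% lower. Fatty acid supply and synthesis had 3 of 7 genes beyond 2-fold higher in both, but in the wider class 2 of 7 in AA over Neg and 0 of 7, with 1 lower and a median of -0.09, in AA+Ab over Neg. Among its genes was *Slc25a1*, the citrate carrier, at 112, 317 and 327 CPM. *Acss2*, which makes acetyl-CoA from acetate, had 35.1, 141 and 80.8 CPM. Desaturation and elongation also had 3 of 6 in both (2 of 8 and 2 of 7 in the wider class), one of them *Elovl3*, at 126, 309.5 and 534 CPM. Of the same list, *Hsd17b12*, which serves each round of elongation, had 866, 1136 and 1612 CPM. Lipid droplet and fatty acid binding had 2 of 6 in AA and 3 of 6 in AA+Ab over Neg, and 1 of 6 in each in the wider class. *Fabp5*, a fatty acid binding protein, had 267, 2380.0 and 2574.0 CPM, the highest ratio of any listed gene that was no member of the 10, with a log2 ratio of 3.16 for AA over Neg. Outside the wider class *Fabp5* was at 2132, 1351 and 1574 CPM. The class thus lay below the other cells in Neg and above them in AA and AA+Ab. *Plin2*, the coat protein of small droplets, had 1281, 1459 and 1749 CPM. Triglyceride synthesis had 1 of 5 and 3 of 5, against 1 of 6 and 1 of 5 in the wider class, with *Lpin1*, a phosphatidate phosphatase, at 31.0, 69.5 and 91.3 CPM. *Lpin1* was the 1 in AA over Neg. The 3 in AA+Ab over Neg were *Lpin1*, *Dgat1* (35.1 and 73.7 CPM in Neg and AA+Ab) and *Agpat2* (76.4 and 158 CPM). *Lpin1* and *Dgat1* were counted only through the AA libraries. Fatty acid activation had 1 of 6 in both, against 0 of 6 in both in the wider class and 1 lower in AA+Ab over Neg, with the fatty acid transporter *Slc27a4* at 105, 251 and 235 CPM. Wax ester synthesis had 0 of 2 and 1 of 1, the latter *Far2*, lipolysis 1 of 2 (with 1 lower) and 0 of 2, and detoxification 0 of 4 and 1 of 4, the latter *Mgst1*. In the wider class wax ester synthesis had 1 of 3, *Awat2*, counted only through AA, and 0 of 2. Lipolysis had 0 of 2 and detoxification 0 of 4 there in both comparisons.

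Of the regulators, 1 of 11 was beyond 2-fold higher in AA than in Neg, a share that is not under the 4.28% of all genes, and the list median was 0.07. It was *Insig1*, which holds sterol sensors in the endoplasmic reticulum, at 22.7, 61.6 and 70.2 CPM. In AA+Ab over Neg *Insig1* was the 1 higher and *Rxra*, the partner of *Pparg*, at 66.1 and 31.6 CPM, the 1 lower, with a log2 ratio of -1.06 (-2.32 to 0.04). *Srebf1*, the transcription factor of fatty acid genes, had 153, 125 and 112 CPM, and *Srebf2*, that of sterol genes, 145, 166 and 151 CPM. *Cebpb*, the most abundant listed regulator, had 924, 973 and 1222 CPM. Over all 75 listed genes outside the 10, 17 of the 52 tested were beyond 2-fold higher in AA than in Neg and 1 lower, beside 4.28% and 6.18% of all genes, and their median was 0.40. In the wider class it was 11 of 56 higher and 0 lower, beside 4.60% and 3.74%, with a median of 0.32. Between AA+Ab and AA none of 50 was higher and 3 were lower, beside 2.64% and 12.4% of all genes: the carboxylase *Acacb* (-1.62), *Rxra* (-1.17) and the elongase *Elovl5* (-1.02), as log2 ratios. With at most 12, 9 and 30 UMIs in AA+Ab, these carried wide intervals, of -2.63 to -0.74, -2.39 to -0.12 and -1.64 to -0.44. Smaller log2 ratios in the same comparison were 0.86 for *Agpat2*, -0.80 for *Acss2*, 0.79 for *Elovl3*, 0.76 for *Fdft1*, -0.66 for *Acsl4*, 0.62 for *Bscl2* and 0.56 for *Fdps*.

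Among the other follicle and epidermal cells, the 10 genes together took at most 0.0994% of the UMIs of a class in a library, reached in the inner root sheath of Neg. This sheath surrounds the growing hair. Its *Mgst1* level was 671 CPM in Neg, 528 in AA and 649 in AA+Ab, and *Elovl6* was at 118, 123 and 98.4 CPM. None of the 7 genes tested there was beyond 2-fold between AA and Neg, where 3.79% of all genes were. *Soat1* in the inner root sheath was at 104, 84.3 and 121 CPM but in only 9.80%, 9.25% and 13.6% of cells, with 1 cell holding 33.7%, 46.0% and 35.3% of its UMIs. *Cidea* was found in 0 of 245 Neg, 1 of 227 AA and 0 of 243 AA+Ab cells.

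The upper follicle, the class of keratinocytes where the gland opens, had *Mgst1* at 49.0, 87.8 and 62.0 CPM, *Elovl6* at 61.4, 44.1 and 37.6 CPM and *Dgat2* at 22.7, 19.1 and 21.7 CPM. None of 6 genes was beyond 2-fold between AA and Neg, beside 7.41% of all genes. *Pparg* had 0 UMIs in the 181 Neg cells, which allows a share of up to 2.02% of cells with a UMI, and 12 UMIs in 7 of 259 AA cells (2.70%, 1.09 to 5.49). *Soat1* was higher in AA+Ab than in Neg, with 25 and 3 UMIs in 9 and 3 cells, the 1 gene of 7 beyond 2-fold beside 3.64% of all genes. A single AA+Ab cell held 16 of the 25 UMIs (64.0%), and the gene had enough UMIs to be counted only through AA+Ab. Without the richest cell of each library the levels were 0.344 CPM in Neg and 1.14 in AA+Ab.

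In suprabasal epidermal keratinocytes *Scd1* was at 85.4, 62.2 and 73.3 CPM, *Dgat2* at 31.1, 20.8 and 30.8 CPM, and *Mgst1* at 34.8, 18.6 and 36.6 CPM. All 3 were lower in AA than in Neg and in AA+Ab, with a log2 ratio for AA over Neg of -0.46 (-0.58 to -0.34), -0.58 (-0.79 to -0.38) and -0.90 (-1.11 to -0.69) in that order. None of 7 genes was beyond 2-fold between AA and Neg, beside 7.76% of all genes. The direction of *Scd1*, *Dgat2* and *Mgst1* here was thus opposite to that in the sums of sebaceous-like cells, a difference that was not tested.

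T cells held *Pparg* mRNA as well. It was there at 4.48 CPM in Neg, 40.3 in AA and 28.6 in AA+Ab, from 8, 84 and 66 UMIs in 5 of 255, 26 of 413 and 23 of 398 cells. The log2 ratio was 3.17 (2.13 to 4.43) for AA over Neg and 2.67 (1.61 to 3.94) for AA+Ab over Neg. Of 6 genes, 1 was beyond 2-fold higher (*Pparg*) and 1 lower (*Scd1*) in AA over Neg. In AA+Ab over Neg 1 of 6 was higher (*Pparg*) and 0 lower. Of all genes in T cells, 14.0% and 8.17% were at or beyond 2-fold in either direction. With 8 UMIs in Neg, *Pparg* had enough UMIs to be counted only through AA and AA+Ab. A single AA cell held 24 of the 84 UMIs, and without it the AA level was 29.1 CPM. Of the 26 AA cells, 24 had a UMI of *Gata3* (92.3%, against 37.5% of all AA T cells) and 20 of *Il1rl1*, the receptor of interleukin 33 (76.9% against 8.96%). *Cd4* was found in 12 (46.2% against 8.23%), *Cd8a* in 8 (30.8% against 42.1%), *Areg* in 9 (34.6% against 12.3%), *Trdc* in 1 (3.85% against 28.8%) and *Foxp3* in 0 (against 2.66%). These genes were chosen after the values had been seen. The T cells of the 3 libraries also differed in make-up. *Trdc* was in 71.0% of T cells in Neg, 28.8% in AA and 57.8% in AA+Ab. *Cd8a* was in 3.92%, 42.1% and 13.6% in the same order. The part of this make-up in the *Pparg* ratios was not tested. T cells held 14.4% of the *Pparg* UMIs of the 3 libraries. *Scd1* in T cells was at 23.0 CPM in Neg, from 41 UMIs, and at 8.65 CPM in AA, from 18 UMIs, a log2 ratio of AA over Neg of -1.41 (95% interval -2.30 to -0.58).

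Summed over all kept cells, *Cidea* was at 2.03 CPM in Neg, 5.87 in AA and 4.10 in AA+Ab, a log2 ratio of 1.53 (1.32 to 1.75) for AA over Neg. It was the 1 gene of 10 beyond 2-fold, beside 6.88% of all genes. *Far2* was at 1.96, 3.38 and 2.37 CPM and *Pparg* at 2.07, 3.50 and 2.67 CPM, while *Fasn*, *Dgat2*, *Mgst1* and *Elovl6* were lower in AA than in Neg by 0.15 to 0.39 on the log2 scale. In such sums more cells of a type and more mRNA per cell cannot be told apart.

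At a limit of 3 UMIs of each, the pair *Scd1* and *Mgst1*, taken alone, did not pick out the sebaceous-like cells. Higher limits and limits scaled to depth were not tried. At least 3 UMIs of each were found in 396 Neg, 300 AA and 299 AA+Ab cells, of which 12, 43 and 29 were in the wider class (3.03%, 14.3% and 9.70%). Of the 995 cells in all, 808 had a UMI of *Krt25*, a keratin of the inner root sheath. *Cidea* was found in 70 and *Pparg* in 82.

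The genes whose level most resembled the mean of the 10 over 34 combinations of cell class and library were *Gm13178*, *Lhpp*, *Gm35986*, *Fa2h*, *Elovl3*, *Clstn3*, *Tkt*, *Rmdn3*, *Ankrd31* and *Mettl7b*, with Pearson r from 0.84 to 0.87 among 16715 genes. The combinations come from 3 libraries and share their depth. With at least 20 cells needed, only 1 of the 34 is sebaceous-like, the AA marker class, so r can rest on that single point of 1 library and is given as a description. *Fa2h*, which hydroxylates fatty acids, had 858 CPM in the AA marker class and was also used to define the wider class, and *Tkt*, a transketolase of the pentose phosphate pathway, had 1009 CPM. Of the 10 genes themselves, *Scd1* was the closest to their mean (0.89) and *Soat1* and *Pparg* the least close (both 0.55).

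Promoter sequence was read because the libraries differ in genes known to answer to sterol-regulated factors and to PPAR receptors. RefSeq promoter windows on GRCm38.p6, from 250 bases before to 50 after each start, were present for 7 of the 10 genes, in 11 windows, and not for *Scd1*, *Dgat2* and *Cidea*. Letters were searched on both strands. The sterol response letters TCACNCCAC were in none of the 7 genes, in 3 of 60 other pathway genes (*Acsl1*, *Hmgcs1* and *Mlxipl*) and in 1.44% of 27025 genes. The PPAR response letters, AGGTCA and again AGGTCA with any 1 base between, were in none of the 7 and in 0.0481% of genes. The single site AGGTCA, added later and contained in the longer letters, was in 2 of the 7, *Elovl6* and *Pparg*, and in 18.1% of all genes. These stretches are shown because *Elovl6* had the highest log2 ratio of the 10 genes, *Pparg* the flattest sums, and *Hmgcs1* the highest level of the sterol list. Each is on the plus strand, with the matched letters in capitals (in *Elovl6* they are the reverse complement), at chr3:129532169-129532222, chr6:115361092-115361143, chr6:115362316-115362348 and chr13:119690190-119690246 in the order given.
Elovl6: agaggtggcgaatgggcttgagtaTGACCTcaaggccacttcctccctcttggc
Pparg, first of 3 starts: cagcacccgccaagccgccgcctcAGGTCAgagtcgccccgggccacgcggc
Pparg, second of 3 starts: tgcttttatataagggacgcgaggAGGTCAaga
Hmgcs1: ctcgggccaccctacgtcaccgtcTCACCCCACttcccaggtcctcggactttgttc

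The capitals lie 193 to 188 bases before the start of *Elovl6*, 28 to 23 and 9 to 4 bases before the first and the second of the 3 starts of *Pparg*, whose last window has no such letters, and 137 to 129 bases before that of *Hmgcs1*. A match of letters is a description of the window, not a measured binding site, and a window without a match says nothing about the factor.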

How the data were processed

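Droplet libraries (10x 3′ chemistry) of Neg, AA and AA+Ab skin were aligned to mm10 and counted by the authors with Cell Ranger 7.2.0. The deposited values are raw UMI counts per gene and barcode, with no normalization. Cells were kept with at least 200 genes and at most 10% mitochondrial UMIs. Classes were set by marker UMIs or CPM, and the *Mc5r* requirement, the exclusions and the wider class were set after marker levels had been seen. Expected shares of cells after thinning are exact hypergeometric values, added after the data were seen. Doublets were kept, and removing them by a score from simulated doublets was an alternative. It took out 2 of the 12 Neg, 4 of the 24 AA and 1 of the 12 AA+Ab cells of the marker class. CPM are a gene's UMIs per class and library over the UMIs of every gene there. CPM have exact Poisson intervals, shares Clopper-Pearson intervals and ratios exact conditional intervals, all at 95%. Genes with at least 20 UMIs in both libraries together were set against a 2-fold limit. With 1 library per group no p-value was computed. All 10 genes are named, with up to 10 pathway genes per comparison by size of ratio and the 5 most abundant. *Srebf1*, *Srebf2* and *Dgat1* were named after their values were seen. Some listed genes count in the list summaries but are not reported here singly. Python 3.11.15, numpy 2.4.6, scipy 1.17.1, pandas 2.3.3, scikit-learn 1.9.0 and matplotlib 3.10.9 were used. Member genes, lists and tests were chosen with earlier results of these data known. The ratio and interval code was tested on simulated data.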

Additional observations from a re-analysis of the deposited data

How the results depend on the processing

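No paired analysis was possible because each group is 1 library and the results come from no test. Of 159 summary values under other settings, 100 moved by less than their counting interval or by less than 1.5 times for counts, and 59 moved more. Of 354 log2 ratios of single genes, 320 kept their direction and 34 did not, most often at a mitochondrial limit of 5% (8 of 14 kept it), with the class from *Scd1* and *Mgst1* (14 of 22), with the whole list (22 of 28) and in the wider class (23 of 28). Of the ratios at or beyond 2-fold, 2 changed sign, both at the limit of 5%, which leaves 1 Neg cell: *Scd1* in AA over Neg (-0.81) and *Mgst1* in AA+Ab over Neg (-0.28). The other causes were not tested. The marker class is small, and its depth limits *Awat2* most.

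The class share, 0.182%, 0.230% and 0.122% in Neg, AA and AA+Ab, became 0.0165% in Neg and 0.0630% in AA at the 5% limit, 0.144% in AA with 1 more marker UMI, and 0.374% in AA and 0.244% in AA+Ab with 1 fewer. It was 6.02%, 2.88% and 3.04% when the class was taken from *Scd1* and *Mgst1*, 0.642% in AA and 0.407% in AA+Ab in the wider class, and 0.441%, 0.355% and 0.346% with the whole list and no exclusions. The last 2 settings, and leaving out the cell with most UMIs of the 10 genes, were chosen after seeing the data.

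Where the class was taken from *Scd1* and *Mgst1*, those 2 genes were left out of every median, count and ratio below. The median log2 ratio of AA over Neg (0.81) was -1.53 at the 5% limit. That of AA+Ab over Neg (1.06) was 1.39 without doublets, 0.62 with 1 fewer marker UMI, 0.56 with the class from *Scd1* and *Mgst1*, 1.67 after thinning and 0.41 in the wider class. That of AA+Ab over AA (0.24) was 1.27 at the 5% limit, -0.60 with the class from *Scd1* and *Mgst1* and -0.56 with the whole list.

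Counts in this paragraph are in either direction, and the number of genes with enough UMIs can differ between settings. No share of all genes was computed beside them, except for the wider class, given above. They are thus a description. The count beyond 2-fold in AA over Neg (3) was 5 with the class from *Scd1* and *Mgst1*, 5 with cells weighted equally and 7 with the whole list. In AA+Ab over Neg (5) it was 3 with 1 fewer marker UMI, 2 with the class from *Scd1* and *Mgst1*, 3 with cells weighted equally, 1 in the wider class and 3 with the whole list. In AA+Ab over AA (1) it was 5 at the 5% limit and 0 with 1 more or 1 fewer marker UMI, the class from *Scd1* and *Mgst1*, thinning, the wider class or without the richest cell.

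The median ratio to cells outside in Neg (21.0) was 15.3 at the 5% limit, 13.3 without doublets, 2.86 with the class from *Scd1* and *Mgst1*, 24.7 after thinning, 17.2 in the wider class, 10.5 with the whole list and 12.8 without the richest cell. In AA (36.0) it was 11.2 at the 5% limit, 42.2 without doublets, 44.3 and 28.3 with 1 more and 1 fewer marker UMI, 4.13 with the class from *Scd1* and *Mgst1*, 22.6 in the wider class, 28.1 with the whole list and 31.2 without the richest cell. In AA+Ab (35.7) it was 20.8 at the 5% limit, 26.3 with 1 fewer marker UMI, 2.79 with the class from *Scd1* and *Mgst1*, 32.3 with cells weighted equally, 18.5 in the wider class, 16.2 with the whole list and 26.6 without the richest cell.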

Other observations

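*Soat1* outside the wider sebaceous-like class was concentrated in few cells. Cells with at least 10 UMIs of it numbered 27 in Neg, 35 in AA and 72 in AA+Ab and held 64.0%, 59.1% and 67.3% of the *Soat1* UMIs found outside that class. Of these 134 cells, 121 had a UMI of *Tchh*, the trichohyalin gene of the inner root sheath, 33 were in the inner root sheath class and 91 in no class, while 2 had a *Cidea* UMI. These cells were picked for their *Soat1* UMIs, so their number is a description.

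*Thrsp*, a lipogenic gene of the marker list, had 343 and 148 of its 516 Neg UMIs in 2 cells. These cells had 149293 and 64519 UMIs, no *Mc5r* and no *Pparg*, 34 and 10 UMIs of *Scd1*, and 4 and 2 of *Cidea*, and were in no class.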
